A study of Mus musculus with 4 samples.

Results

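High-Malat1 cells are 343 cells of mouse medulloblastoma in which Malat1, a long noncoding RNA of the cell nucleus, took more than 300 of every 10000 unique molecular identifiers (UMIs, 1 per captured RNA molecule). They were 8.89% of the 3858 cells that passed the same filter, and the libraries hold 5670 barcodes in all. A cell had to have at least 500 detected genes, at most 10% of its UMIs on mitochondrially encoded genes, and under 3 UMIs summed over 7 glial and myeloid genes (Lhfpl3, Olig1, Aqp4, Aldoc, Slc25a18, Tyrobp and C1qb). They were set against 2203 comparison cells of that filter with 60 to 250 Malat1 UMIs per 10000, mouse by mouse. A further 1145 cells of the filter lay under 60 and 167 lay over 250 and at most at 300. The rule reads Malat1 and the total UMIs of a cell, so both are described here without a test. The filter also reads detected genes and mitochondrial UMIs. Mitochondrially encoded genes stayed in the test, so their results hold only under the 10% limit, which cuts off their highest levels in both classes. Ogt and Gm26699 were named with the cells and are also only described, and the long noncoding counts are given without Gm26699 as well.

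The study profiled tumours of the cerebellum from 4 littermate mice at postnatal day 20, with 1 droplet library (10x Chromium 3' chemistry) per mouse. All 4 mice carry Atoh1-cre:SmoM2, so both classes of cells share the genotype, and there is no tumour-free mouse among the samples. Atoh1-cre turns on SmoM2, a Smoothened that is always active, in granule neuron precursors, and tumours of the Sonic hedgehog type form from them. Tumour tissue was dissociated with Accutase, red cells were lysed and cells that took up the dye 7-AAD were sorted out. The shares of cells given here are therefore shares of cells that survived dissociation and that sort. The library of mouse 1 was sequenced at a pair of time points.

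Malat1 is retained in the nucleus, where it gathers at nuclear speckles, bodies rich in splicing factors. In droplet data the share of UMIs on Malat1 reflects how much nuclear RNA and how much cytoplasmic RNA a barcode holds, and isolated nuclei and cells with leaking membranes are both known for a high share. Messenger RNAs of ribosomal proteins lie mostly in the cytoplasm, and mitochondrially encoded transcripts lie inside mitochondria, so both are usually scarce in clean nuclei. Granule neuron precursors divide under the Sonic hedgehog signal, then leave the cell cycle and turn on genes of axon growth and synapses.

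Mice 1 to 4 gave libraries of 3415171, 2573901, 1679285 and 3801197 UMIs in total. High-Malat1 cells numbered 72, 96, 50 and 125, against 814, 394, 487 and 508 comparison cells in the same mice. They made up 5.55%, 11.9%, 7.34% and 11.6% of the filtered cells. Barcodes above the Malat1 limit numbered 889 before filtering: 246 had too few genes, 204 had too many mitochondrial UMIs and 96 carried the glial or myeloid genes. Among all barcodes, 20 barcode strings occur in more than 1 library. Among kept cells there are 9, and 2 high-Malat1 cells carry one. Doublets were not removed.

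High-Malat1 cells held fewer UMIs outside Malat1 and more of Malat1 itself. The median number of UMIs outside Malat1 was 988, 1300, 1142 and 1139 in the high-Malat1 cells of mice 1 to 4, against 2326, 3297, 1842 and 3964 in comparison cells. Median detected genes were 722.5, 867.5, 802.5 and 791 in high-Malat1 cells, against 1325, 1692, 1115 and 1932.5 in comparison cells. The median Malat1 count was 53, 77.5, 54.5 and 68 UMIs per high-Malat1 cell, against 30, 50, 28 and 52 UMIs per comparison cell. The classes do not overlap in any of these medians of UMIs, genes or Malat1 UMIs. The gene minimum bears on the class as well, since its shallowest members lie at 500 genes.

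Because depth differs so much between the classes, results in all cells are followed by those in 272 high-Malat1 cells paired with 272 comparison cells of the same mouse and nearly the same UMIs outside Malat1, at most 1.2 times apart. A gene described below as changed in all cells, with no statement on matched cells, had too few UMIs to be tested there. After matching, the medians were 988, 1780, 1170.5 and 1238 UMIs outside Malat1 in high-Malat1 cells, against 987, 1847, 1169.5 and 1259 in comparison cells. Malat1 counts in the matched sets had medians of 53, 82, 54.5 and 78 UMIs in high-Malat1 cells, against 15, 25, 18.5 and 20 in comparison cells.

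**Figure D1:**
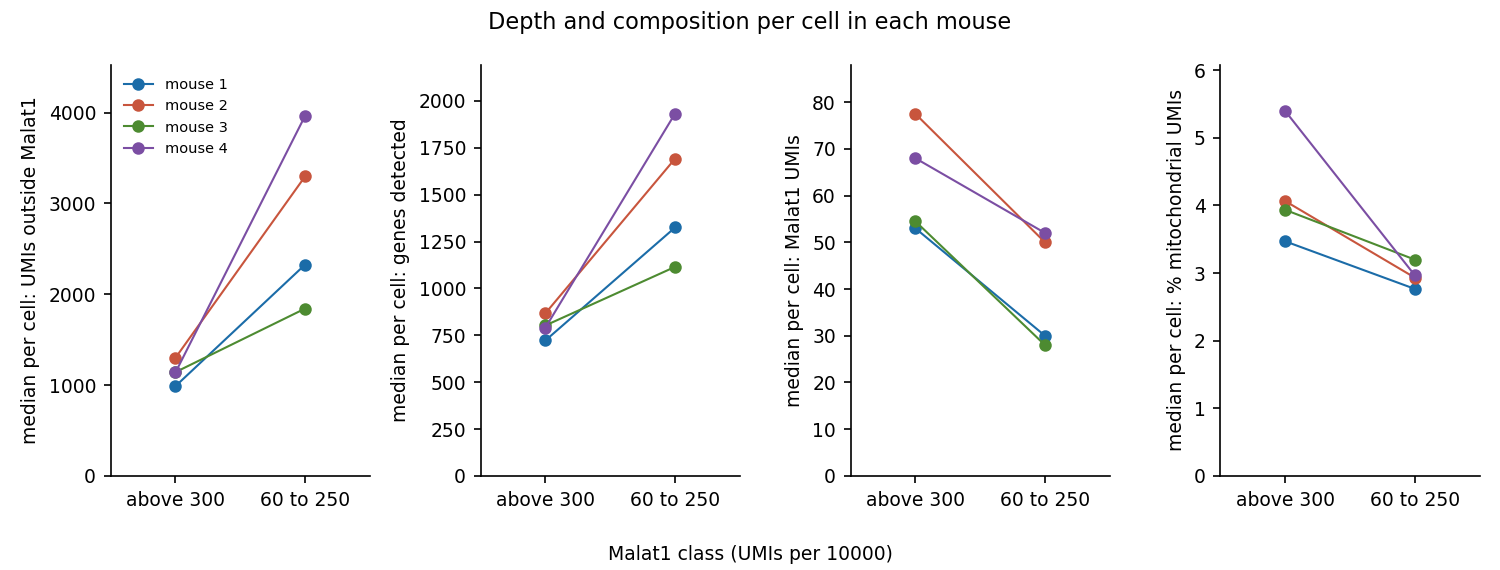
Medians per cell in each of 4 mice (colours), for cells with Malat1 above 300 and at 60 to 250 UMIs per 10000; the panels show UMIs outside Malat1, detected genes, Malat1 UMIs, and the percent of UMIs on mitochondrially encoded genes. In every mouse the high-Malat1 cells have fewer UMIs and genes and more Malat1 UMIs, and their median mitochondrial share lies between 3.47% and 5.39%, against 2.76% to 3.20% in comparison cells.

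Malat1 summed over cells took 464, 464, 431 and 519 UMIs per 10000 in the high-Malat1 cells of mice 1 to 4, against 126, 152, 145 and 137 in comparison cells. Malat1 lies at chr19:5795690-5802672 on the minus strand (GRCm38, the build that mm10 names; GENCODE M21). Of the other markers named with the cells, Ogt had 3.07, 2.44, 2.11 and 3.09 UMIs per 10000 in high-Malat1 cells, against 1.28, 1.39, 1.08 and 1.68 in comparison cells. Ogt (chrX:101640060-101684351, plus strand) encodes the enzyme that adds O-GlcNAc to proteins, and it keeps part of its transcripts in the nucleus with an unspliced intron. The long noncoding gene Gm26699 (chr6:38551531-38554007, minus strand) had 1.53, 2.25, 1.13 and 4.12 per 10000 in high-Malat1 cells, against 1.34, 1.27, 1.05 and 1.52 in comparison cells. In mice 1 and 3 the levels of Gm26699 in the classes lie close together. The Malat1 levels are per 10000 of all UMIs, without scaling. All other single-gene levels here and below are UMIs per 10000 UMIs of the genes that entered the test, which leaves out Malat1 and the 7 filter genes, scaled for composition with TMM (trimmed mean of M-values).

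For the comparison across all genes, the UMIs of each class were added up within each mouse. The 8 sums went into edgeR's quasi-likelihood test, with the mouse as a block and Benjamini-Hochberg adjustment at 0.05. Of 6829 genes tested 657 (9.62%) were called, 292 (4.28%) higher and 365 (5.34%) lower in high-Malat1 cells, and the median log2 fold change was -0.01. With library totals in place of TMM the balance turned, to 382 higher and 189 lower, and the median moved to 0.09. In the depth-matched cells 88 of 2179 genes (4.04%) were called, 54 higher (2.48%) and 34 lower (1.56%). Of those 88 genes, 79 were also called the same way in all cells. Of the 490 genes called in all cells and tested in the matched ones, 467 kept their sign. Counts of called genes in the lists below stand beside the shares over all genes given here, and were not tested against them. The count of calls leaned on single mice: it was 385 without mouse 1, 442 without mouse 2, 646 without mouse 3 and 282 without mouse 4. Among gene lists described below, leaving out mouse 4 gave 2 chromatin regulators, 0 granule progenitor genes and 5 splicing and speckle genes higher, and 2 oxidative phosphorylation genes and 6 G2/M genes lower. Nothing in the labels says more of the 4 mice than that they are littermates. The p-values come from these 4 pairs of sums, with a spread pooled over genes. A gene's own spread between mice hardly enters them, so they do not measure how well the mice agree on a single gene.

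Long noncoding RNAs other than Malat1 were higher as a sum in high-Malat1 cells. Summed over 5481 long noncoding genes, they took 115, 83.1, 112 and 97.8 UMIs per 10000 outside Malat1 in the high-Malat1 cells of mice 1 to 4, against 75.7, 61.6, 86.2 and 72.8 in comparison cells. Means were 102 ± 14.7 in high-Malat1 cells and 74.1 ± 10.1 in comparison cells (SD, n = 4 mice each). All 4 mice went up, and an exact two-sided sign-flip permutation test gave p = 0.13, the smallest that 4 pairs allow. In depth-matched cells the means were 103 ± 14.2 in high-Malat1 cells and 84.3 ± 13.6 in comparison cells, again higher in 4 of 4 mice. Few genes carried much of the rise. A list of 10 nuclear RNAs, Xist, Kcnq1ot1 and Miat among them, rose by 15.4 per 10000 on average, beside 28.0 for the whole sum. In depth-matched cells it rose by 11.4, beside 18.5. Low counts kept most of the single genes out of the test: 63 were tested, 12 were higher and none was lower, with a median log2 fold change of 0.25. Of the 12, Gm26917 and Gm42418 lie next to each other on chromosome 17 and were each higher in 3 of 4 mice. Whether their UMIs come from long noncoding RNA was not tested. Leaving out Gm26699, 11 of 62 were higher, the median was 0.23 and the sums averaged 99.8 ± 15.4 in high-Malat1 cells and 72.8 ± 10.2 in comparison cells. In depth-matched cells 19 were tested and 2 were higher, with a median of -0.17, so the sum and the median of single genes differ in sign there. Without mouse 4, 5 of 61 tested were higher, and without mouse 2, 8 of 65.

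Xist, the RNA that coats and silences an X chromosome, was the long noncoding gene with the most UMIs after Malat1 among those named here. It had 36.6, 3.43, 25.9 and 11.4 UMIs per 10000 in high-Malat1 cells of mice 1 to 4, against 17.3, 1.00, 15.3 and 3.49 in comparison cells. The 4 mice differ more from each other than the classes do, and in each mouse the high-Malat1 cells are higher. An Xist UMI was found in 66 of 72, 7 of 96, 42 of 50 and 23 of 125 high-Malat1 cells of mice 1 to 4. The shares of comparison cells were 92.3%, 5.33%, 85.6% and 18.9%. In mice 2 and 4 the level thus rests on few cells. The log2 fold change was 1.23 ± 0.08 (standard error worked back from the test, as for all values after ± on this scale), with an adjusted p of 1.49e-44 in edgeR, and 0.87 in depth-matched cells (adjusted p = 5.9e-11). Tsix, transcribed on the opposite strand of Xist, rose by 1.68 ± 0.45 on the log2 scale on 18 UMIs in high-Malat1 cells and 88 in comparison cells (adjusted p = 0.00455). How the counting treated strand is not given in the sources used here, so reads of Xist and Tsix may be mixed.

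Kcnq1ot1, an imprinted RNA that silences its neighbours on chromosome 7, had 4.95, 5.87, 3.89 and 5.09 UMIs per 10000 in high-Malat1 cells, against 2.77, 3.52, 2.24 and 3.23 in comparison cells. The lowest high-Malat1 value lies above the highest comparison value. Its log2 fold change was 0.74 ± 0.12 (edgeR adjusted p = 2.66e-07), and 0.70 in depth-matched cells (adjusted p = 0.00308). Miat, a nuclear RNA of neural cells, had 1.89, 2.44, 0.972 and 3.52 per 10000 in high-Malat1 cells, against 0.762, 1.08, 0.789 and 1.73 in comparison cells. It was higher in every mouse, least in mouse 3, with a log2 fold change of 1.06 ± 0.17 (edgeR adjusted p = 1.3e-07). In depth-matched cells Miat stood at 0.65 with an adjusted p of 0.122. The Riken transcripts 2900079G21Rik and 2900093K20Rik, both annotated as long noncoding, rose by 1.45 ± 0.38 and 1.40 ± 0.45.

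Other nuclear RNAs were too rare to test. Neat1, the RNA that builds paraspeckles, had 1 UMI over all high-Malat1 cells and 28 over all comparison cells. Snhg11, a host of small nucleolar RNAs, had 3 in high-Malat1 cells and 5 in comparison cells. Meg3, an imprinted RNA common in mature neurons, had 56 UMIs in high-Malat1 cells and 11 in comparison cells. The Meg3 UMIs lay in 19 of the 343 high-Malat1 cells, namely 11, 1, 1 and 6 cells of mice 1 to 4, and in 10 of the 2203 comparison cells. Those 19 cells are set apart again below, since several other genes rest on them.

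Transcripts of the ribosome and of its translation factors were lower. The 82 ribosomal protein genes took 1502, 1464, 1652 and 1363 UMIs per 10000 outside Malat1 in high-Malat1 cells, against 1814, 1743, 1702 and 1676 in comparison cells. All 4 mice went down, mouse 3 by the least, and the ranges of the classes do not overlap. All 82 were tested: 62 were lower, none was higher, 81 had a negative log2 fold change, and the median was -0.31, beside -0.01 over all genes. With library totals in place of TMM 39 were lower. In depth-matched cells the sum was 1526 ± 104 per 10000 in high-Malat1 cells and 1694 ± 56.8 in comparison cells (SD, n = 4 mice each), lower in 4 of 4 mice. There 10 of 77 were lower and the median was -0.13. Many ribosomal protein genes have near-identical pseudogene copies, so counts of single members are uncertain.

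Rpl10a, a protein of the large subunit, had 16.4, 13.8, 19.1 and 14.7 UMIs per 10000 in high-Malat1 cells, against 23.8, 20.6, 23.2 and 20.7 in comparison cells. The classes do not overlap. Its log2 fold change was -0.48 ± 0.07 (edgeR adjusted p = 1.49e-08), and -0.27 in depth-matched cells (adjusted p = 0.0469). Rpl21 fell by 0.45 ± 0.08 in all cells and by 0.32 in matched cells (adjusted p = 0.035). Rpl12 fell by 0.49 ± 0.09 in all cells and stood at -0.15 in matched cells (adjusted p = 0.6). Rplp0, a stalk protein of the large subunit, had 24.3, 25.9, 30.3 and 23 per 10000 in high-Malat1 cells, against 34.0, 31.8, 33.1 and 28.7 in comparison cells, a change of -0.31 ± 0.07 (adjusted p = 0.000158) that was -0.03 in matched cells (adjusted p = 0.929). Rps27 showed no call, at -0.05 ± 0.17 (adjusted p = 0.902).

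Of 22 translation and nascent-chain factors 13 were lower and none higher, with a median of -0.29, and 3 of 22 were lower in depth-matched cells. Npm1, a nucleolar chaperone of ribosome assembly, had 17.1, 16.9, 11.5 and 13.8 UMIs per 10000 in high-Malat1 cells, against 23.6, 22.6, 17.3 and 21.5 in comparison cells. It was lower in each mouse, by 0.52 ± 0.08 on the log2 scale (edgeR adjusted p = 1.17e-09) and by 0.29 in matched cells (adjusted p = 0.0358). Eif5a, an elongation factor, fell by 0.52 ± 0.08 and Tpt1, a growth-linked translation target, by 0.49 ± 0.07 in all cells. In matched cells they stood at -0.30 and -0.23 without a call (edgeR adjusted p = 0.0922 and 0.0649). Eef1a1, the elongation factor that brings tRNA to the ribosome, fell by 0.26 ± 0.06 (adjusted p = 0.000519) and was at -0.05 in matched cells (adjusted p = 0.718).

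Many vertebrate genes of ribosomal proteins and translation factors start their mRNA with a run of C and T, the 5' terminal oligopyrimidine tract, through which growth signals set their translation. Start regions of genes that fell are shown here, with and without such a run near the start. RefSeq start sites (GRCm38.p6) were found for 60 of the 82 ribosomal protein genes, and each line gives 15 bases before and 15 after a start, with a run of at least 7 C or T that touches this window in capitals.
Rps10 (chr17:27635230-27635259, minus strand): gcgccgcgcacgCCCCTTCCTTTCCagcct
Rps18 (chr17:33955651-33955680, minus strand): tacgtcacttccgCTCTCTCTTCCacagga
Rps25 (chr9:44407699-44407728, plus strand): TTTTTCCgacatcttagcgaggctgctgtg
Rpl27a (chr7:109519180-109519209, plus strand): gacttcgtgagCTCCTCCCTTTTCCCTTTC
Naca (chr10:128035331-128035360, plus strand): gcaactcgTTCTCTTaaagaggaaacccgg
Rps4x (chrX:102189377-102189406, minus strand): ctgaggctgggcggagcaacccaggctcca
The runs cross the start in Rps10, Rps18 and Rpl27a, in Rps25 and Naca they end before it and so lie outside the annotated mRNA, and Rps4x has none in this window. A run that reaches the start or lies after it was present in 29 of 60 ribosomal protein genes (48.3%) and in 4 of 14 translation factors (28.6%), against 859 of 5276 tested genes with a start site (16.3%). Within the ribosomal proteins, 21 of 45 that were lower (46.7%) and 8 of 15 that were not called (53.3%) carried one. It was present in 53 of 214 genes that were higher (24.8%) and in 9 of 35 tested long noncoding genes (25.7%). The log2 fold changes of the genes shown were -0.45 for Rps10, -0.42 for Rps18, -0.44 for Rps25, -0.22 for Rpl27a, -0.46 for Naca and -0.41 for Rps4x. In matched cells Rps18 (-0.34, edgeR adjusted p = 0.00516), Rps25 (-0.30, adjusted p = 0.0201) and Naca (-0.34, adjusted p = 0.0156) were called and the other 3 were not.

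Mitochondrially encoded transcripts were higher, which goes against the label "nucleus-like" under which the cells were proposed, and the cells are therefore called here by their rule. They took 431, 464, 426 and 510 UMIs per 10000 outside Malat1 in high-Malat1 cells, against 296, 307, 347 and 306 in comparison cells. All 4 mice went up and the classes do not overlap. Of 12 genes tested 9 were higher and none lower, with a median log2 fold change of 0.46. mt-Atp6, a subunit of ATP synthase, had 116, 121, 112 and 132 per 10000 in high-Malat1 cells, against 83.9, 81.8, 98.6 and 79.3 in comparison cells. Its change was 0.50 ± 0.06 (edgeR adjusted p = 4.29e-16) and 0.09 in matched cells (adjusted p = 0.371). mt-Co1, of cytochrome c oxidase, had 60.5, 71.1, 73.9 and 92.0 in high-Malat1 cells, against 45.5, 47.8, 72.4 and 59.2 in comparison cells, nearly level in mouse 3. It changed by 0.43 ± 0.06 (edgeR adjusted p = 5.17e-11) and stood at 0.16 without a call in matched cells (adjusted p = 0.0813).

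Depth moved with the mitochondrial result. In depth-matched cells the sum was 431, 414, 426 and 489 per 10000 in high-Malat1 cells, against 415, 378, 437 and 436 in comparison cells, lower in mouse 3, and none of 11 genes was called by edgeR (median 0.10), with 3 higher at an unadjusted p under 0.05. At an upper limit of 5% mitochondrial UMIs in place of 10%, none of 12 was called either, with 1 lower at an unadjusted p under 0.05, and mt-Atp6 stood at -0.06. That limit picks cells by the same UMIs, so it cannot show how these genes differ beyond it. In neither setting was a transcript called lower. Nuclear genes of oxidative phosphorylation went the other way: 11 of 76 were lower and none higher, with a median of -0.18, and in depth-matched cells none of 75 was called by edgeR (median -0.09), with 1 higher and 7 lower at an unadjusted p under 0.05. With library totals in place of TMM 3 of the 76 were lower. Cox5a, a cytochrome c oxidase subunit, fell by 0.43 ± 0.10 (edgeR adjusted p = 0.000519) and stood at -0.35 in matched cells (adjusted p = 0.119).

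**Figure D2:**
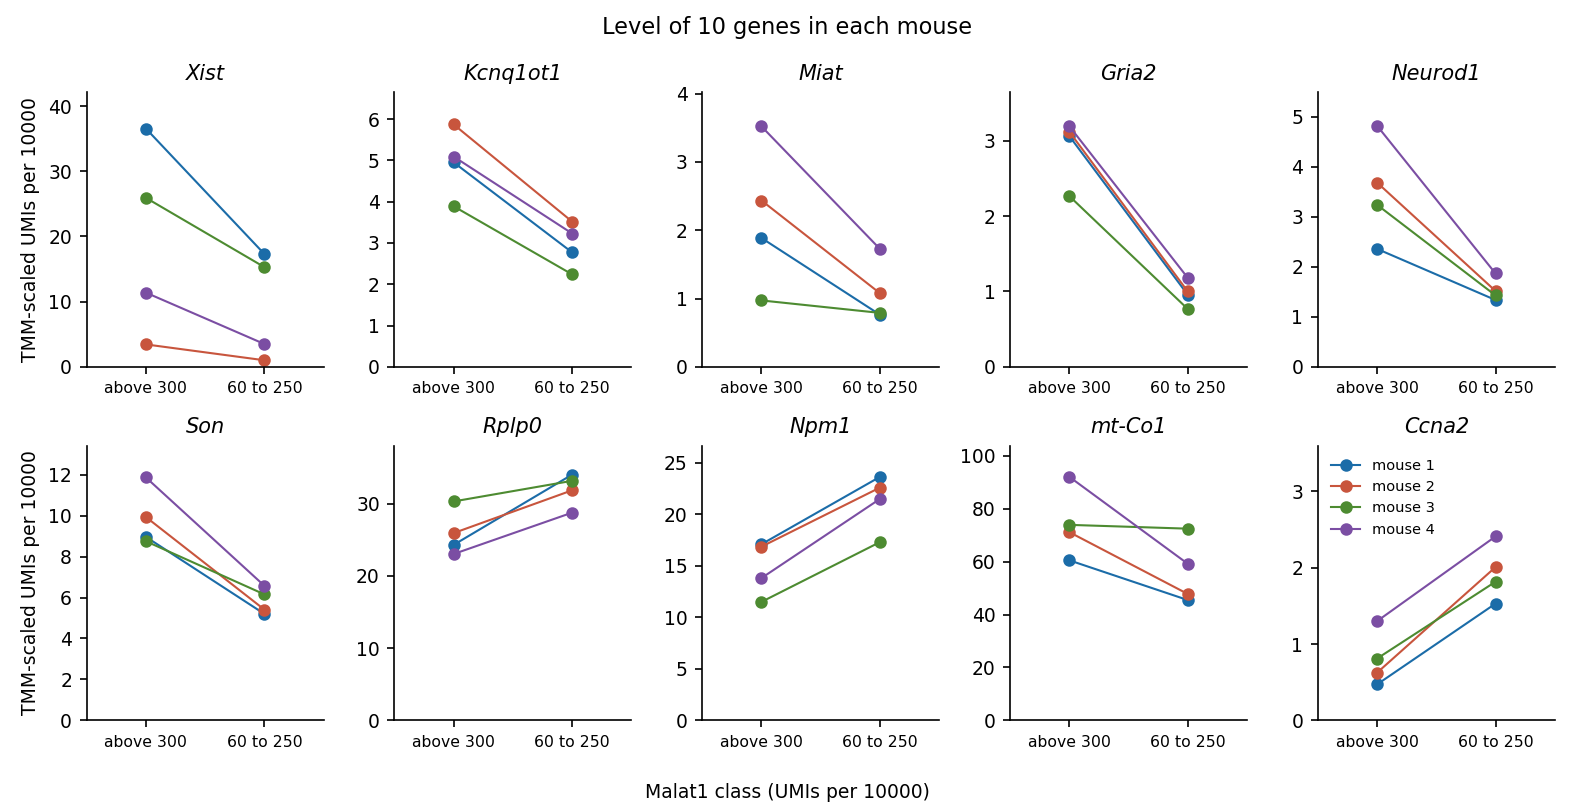
Level of 10 genes in each of 4 mice (colours), as TMM-scaled UMIs per 10000 UMIs of tested genes, for cells with Malat1 above 300 and at 60 to 250 UMIs per 10000. Xist, Kcnq1ot1, Miat, Gria2, Neurod1 and Son are higher in the high-Malat1 cells of every mouse, Rplp0, Npm1 and Ccna2 are lower in every mouse, and mt-Co1 is nearly level in mouse 3.

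Genes of neuronal differentiation were higher. The 24 differentiating granule neuron genes took 42.7, 59.8, 44.7 and 64.2 UMIs per 10000 outside Malat1 in high-Malat1 cells, against 33.0, 35.3, 35.2 and 39.1 in comparison cells. The classes do not overlap, and mice 2 and 4 are the higher ones in both. Of 22 tested 12 were higher and none lower, with a median log2 fold change of 0.63, and of 15 tested in depth-matched cells 5 were higher (median 0.46). Neurod1, a transcription factor of maturing granule neurons, had 2.36, 3.68, 3.24 and 4.82 per 10000 in high-Malat1 cells, against 1.34, 1.52, 1.43 and 1.87 in comparison cells. It rose by 1.23 ± 0.15 (edgeR adjusted p = 3.37e-14), and by 0.90 in matched cells (adjusted p = 0.0011). When only cells below their mouse's median of these genes were kept, 134 genes were called over all, and Neurod1, itself in the list that set the limit, stood at -0.01.

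Stmn2 and Tubb3, of the growing neurite's microtubules, rose by 0.73 ± 0.11 and 0.66 ± 0.10, Tubb3 in 3 of 4 mice, with mouse 3 lower. In depth-matched cells they stood at 0.16 and 0.31 without a call (adjusted p = 0.647 and 0.196 in edgeR). Stmn4, of the same stathmin family, rose by 1.17 ± 0.18 in all cells and by 0.93 in matched cells (adjusted p = 0.0199). Cntn2, an adhesion protein of young granule neuron axons, had 0.472, 1.06, 0 and 1.41 per 10000 in high-Malat1 cells, against 0.252, 0.115, 0.292 and 0.264 in comparison cells. It was absent from the high-Malat1 cells of mouse 3, and rose by 2.02 ± 0.31 overall. Gap43, a growth cone protein, rose by 0.42 ± 0.13, was lower in mouse 3 (2.59 per 10000 in high-Malat1 cells, against 3.72 in comparison cells), and rose by 0.55 in matched cells (adjusted p = 0.0449). Rbfox3, the marker NeuN of mature neurons, was not called, at 0.36 ± 0.23 (adjusted p = 0.368).

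Synaptic and other very long neuronal genes were higher too, 5 of 11 tested and none lower, with a median of 0.75, and 3 of 5 in depth-matched cells. Gria2, an AMPA receptor subunit, had 3.07, 3.12, 2.27 and 3.20 UMIs per 10000 in high-Malat1 cells, against 0.957, 1.00, 0.768 and 1.18 in comparison cells. The classes lie far apart, with a log2 fold change of 1.56 ± 0.17 (edgeR adjusted p = 7.31e-18), and 1.26 in matched cells (adjusted p = 0.000206). Lsamp, a neuronal adhesion protein, rose by 1.33 ± 0.25 and by 1.46 in matched cells (adjusted p = 0.0121). Opcml, another adhesion protein of the same family, rose by 2.66 ± 0.31 on 55 UMIs in 39 high-Malat1 cells and 104 UMIs in 83 comparison cells. Among the 10 largest increases over all genes were also Pcsk1n (2.33 ± 0.35), a secreted neuroendocrine protein, Elmo1 (1.96 ± 0.37), a regulator of cell movement, and Aplp1 (1.86 ± 0.25), a neuronal relative of the amyloid precursor protein that rose by 1.22 in matched cells (adjusted p = 0.0216). Of the 39 UMIs of Pcsk1n in high-Malat1 cells 12 lay in the 19 cells with a Meg3 UMI.

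Gene span moved with these changes. The 292 genes that were higher had a median span from start to end, introns included, of 44511.5 bases, and the 365 that were lower had 8519.5 bases, with 23180 bases over all tested genes that have one. Setting aside ribosomal, translation and oxidative phosphorylation genes, the median log2 fold change over 5 equal groups of increasing span was -0.13, -0.07, -0.02, 0.08 and 0.20. In depth-matched cells it was -0.06, -0.07, 0.00, 0.05 and 0.18 over groups made the same way. By the summed exon length of a gene, the medians of 5 such groups in all cells were -0.17, -0.09, 0.00, 0.08 and 0.22. The fold change thus rose with either length, and the part of each was not told apart. These are descriptions across genes, which are not independent replicates.

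**Figure D3:**
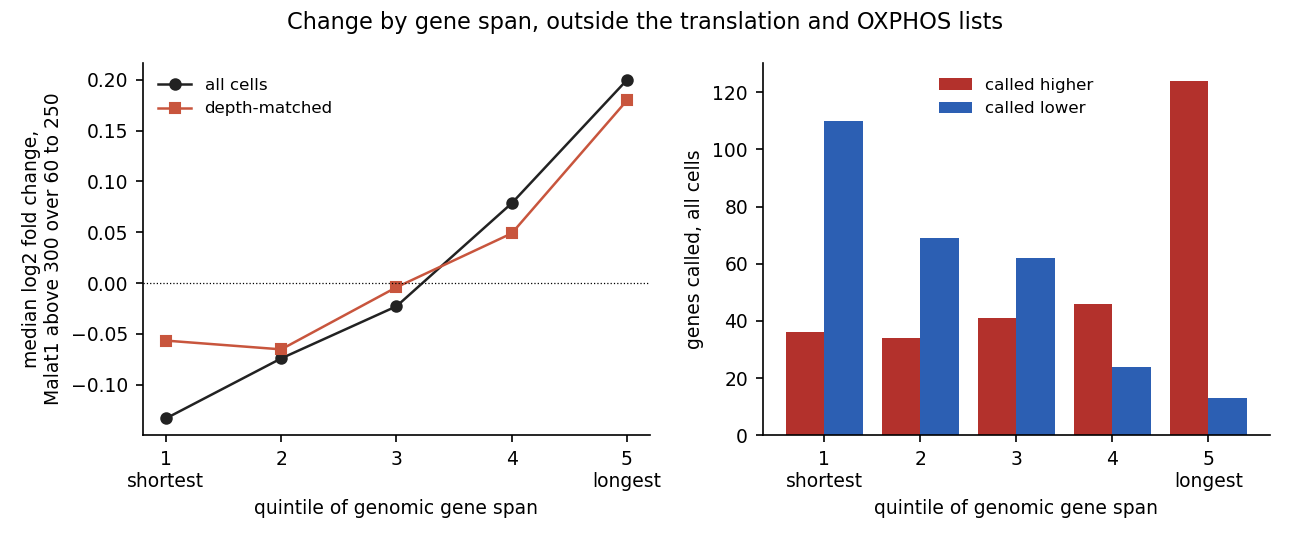
Left, median log2 fold change (Malat1 above 300 over 60 to 250) of tested genes in 5 equal groups of genomic span, in all cells and in depth-matched cells, without ribosomal, translation and oxidative phosphorylation genes; right, genes called higher and lower in all cells in each group. The longest group has 124 genes higher and 13 lower, the shortest 36 higher and 110 lower.

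Among splicing factors and speckle proteins the members went both ways: 8 of 38 were higher, 3 were lower, and the median was 0.17. In depth-matched cells 2 of 35 were higher and 1 lower, with a median of 0.20. Son, a large scaffold protein of nuclear speckles, had 8.96, 9.93, 8.75 and 11.9 UMIs per 10000 in high-Malat1 cells, against 5.20, 5.41, 6.15 and 6.57 in comparison cells. It rose by 0.79 ± 0.09 (edgeR adjusted p = 9.8e-15), and by 0.43 in matched cells (adjusted p = 0.0216). Ccnl2, a cyclin of speckles, rose by 0.69 ± 0.18 in all cells and stood at 0.43 in matched cells (adjusted p = 0.446). Nktr, a speckle-linked cyclophilin, rose by 0.67 ± 0.17 and stood at 0.82 (adjusted p = 0.0557). The members that fell were the SR proteins Srsf3 (by 0.64 ± 0.09), Srsf1 (by 0.56 ± 0.17) and Srsf7 (by 0.47 ± 0.11). In matched cells Srsf1 fell by 0.71 (adjusted p = 0.0449), while Srsf3 at -0.29 (adjusted p = 0.209) and Srsf7 at -0.23 (adjusted p = 0.484) were not called. Mgea5, which encodes the enzyme that removes O-GlcNAc, rose by 0.66 ± 0.21 (adjusted p = 0.0201), was level in mouse 1, and stood at 0.67 without a call in matched cells (adjusted p = 0.206).

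Of 31 chromatin regulators 6 were higher and none lower, with a median of 0.28, and 4 of 15 were higher in depth-matched cells. Auts2, a Polycomb-linked neuronal regulator, had 1.06, 1.87, 0.972 and 1.30 UMIs per 10000 in high-Malat1 cells, against 0.694, 0.731, 0.681 and 0.845 in comparison cells. It rose by 0.87 ± 0.22 (edgeR adjusted p = 0.00171) and by 1.07 in matched cells (adjusted p = 0.0449). Atrx, a remodeller of heterochromatin, rose by 0.56 ± 0.12 in all cells and stood at 0.27 without a call in matched cells (adjusted p = 0.399). Chd7, a remodeller needed for granule neuron development, rose by 0.45 ± 0.12 and by 0.54 in matched cells (adjusted p = 0.0369).

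**Figure D4:**
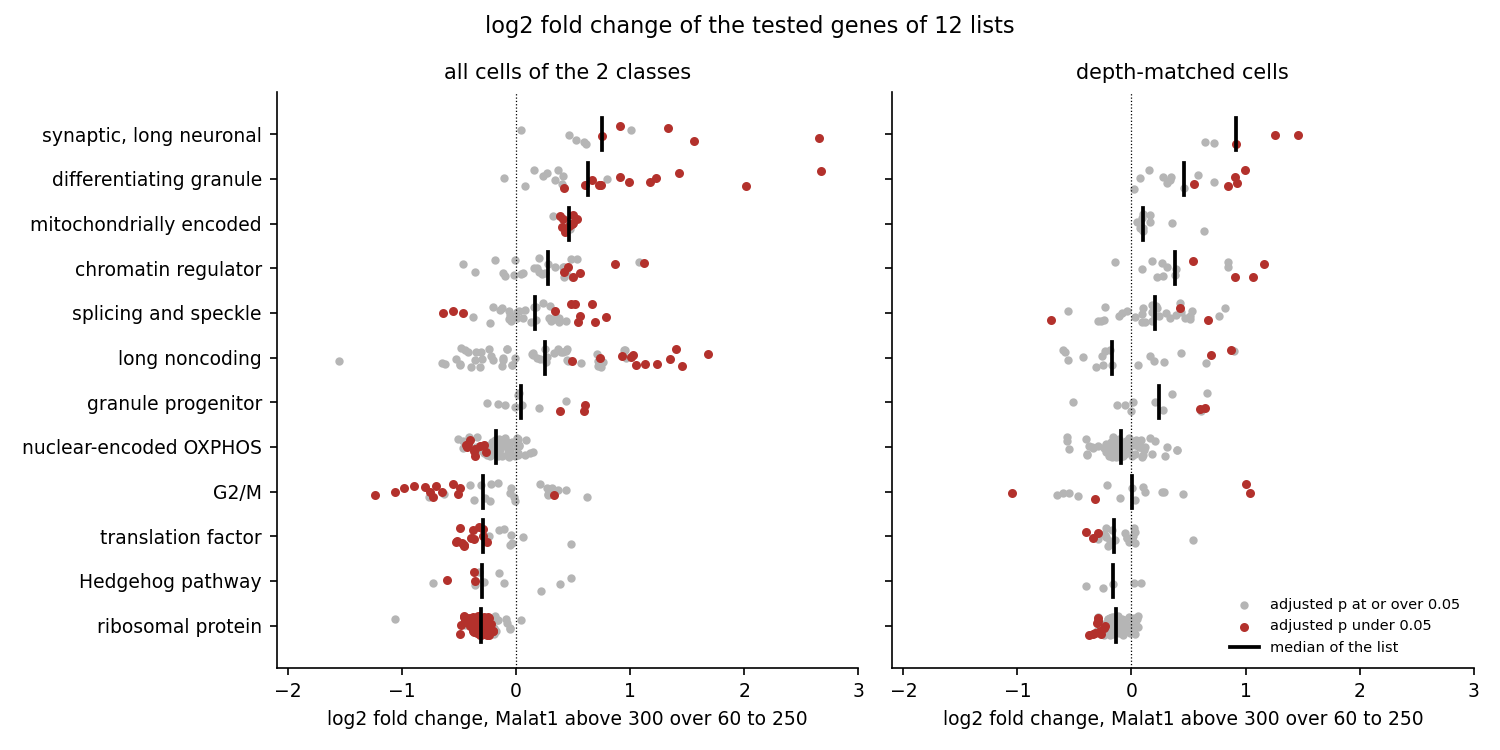
Log2 fold change (Malat1 above 300 over 60 to 250) of each tested gene in 12 gene lists, in all cells (left) and in depth-matched cells (right); red points have an edgeR adjusted p under 0.05 and black bars are the medians of the lists. The ribosomal protein median lies at -0.31 in all cells and -0.13 in matched cells, the mitochondrially encoded one at 0.46 and 0.10, and the differentiating granule one at 0.63 and 0.46.

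Genes of the granule neuron lineage, from which the tumours form, were present in the sums of high-Malat1 cells. Whether single cells are tumour cells or normal granule cells was not tested. Atoh1, the transcription factor of granule neuron precursors, had 2.59, 1.69, 2.59 and 1.35 UMIs per 10000 in high-Malat1 cells, against 2.08, 2.00, 1.73 and 1.59 in comparison cells, with no call (0.03 ± 0.18, edgeR adjusted p = 0.956). Of 12 granule progenitor genes tested 3 were higher and none lower, and 2 of 12 were higher in depth-matched cells. Over all genes tested 4.28% were higher, and 2.48% in depth-matched cells. Zic1, a zinc finger factor of the lineage, rose by 0.38 ± 0.10 and by 0.65 in matched cells (adjusted p = 0.0011). Meis1, a homeobox factor, rose by 0.60 ± 0.16 in all cells and stood at 0.61 in matched cells (adjusted p = 0.106). Among Hedgehog pathway genes 3 of 12 were lower and none higher, and none of 5 was called by edgeR in depth-matched cells, with 2 lower at an unadjusted p under 0.05. Over all genes tested 5.34% were lower. Ccnd1, the cyclin D1 target of the pathway, fell by 0.60 ± 0.12 (adjusted p = 1.58e-05), Sfrp1 by 0.37 ± 0.12 and Ccnd2 by 0.36 ± 0.08. In matched cells they stood at -0.16, -0.40 and -0.25 (edgeR adjusted p = 0.702, 0.16 and 0.182). The direct targets Ptch1 (-0.28 ± 0.15, adjusted p = 0.246) and Gli1 (-0.36 ± 0.38, adjusted p = 0.64) were not called.

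Genes of cell division were split. Of 34 G2/M genes tested 12 were lower and 1 higher, and the sum of the list was 43.9, 67.0, 41.9 and 58.8 UMIs per 10000 outside Malat1 in high-Malat1 cells, against 58.7, 67.8, 71.9 and 80.7 in comparison cells. In depth-matched cells the sums were 53.04 ± 12.5 in high-Malat1 cells and 52.6 ± 12.5 in comparison cells (SD, n = 4 mice each), with 2 genes higher and 2 lower of 17. Ccna2, cyclin A2, had 0.472, 0.625, 0.810 and 1.30 per 10000 in high-Malat1 cells, against 1.53, 2.01, 1.82 and 2.41 in comparison cells, a fall of 1.24 ± 0.21 (edgeR adjusted p = 7.28e-07) and of 1.05 in matched cells (adjusted p = 0.0216). Aurkb and Cenpa, of the centromere, fell by 1.07 ± 0.27 and 0.98 ± 0.16, and Cenpa stood at -0.66 in matched cells (adjusted p = 0.0586). Top2a, the topoisomerase of dividing cells, rose by 0.33 ± 0.11 (adjusted p = 0.0366), was lower in mouse 3, and rose by 1.04 in matched cells (adjusted p = 2.88e-06). Mki67 was not called in all cells (0.28 ± 0.15, adjusted p = 0.25) and rose by 1.00 in matched cells (adjusted p = 0.00275).

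The share of cells holding a UMI of either gene was taken after each cell was thinned to 1000 UMIs outside Malat1, which left out 138 of the 343 high-Malat1 cells as too shallow. The shares were 37.1%, 31.1%, 30% and 38.0% in high-Malat1 cells, against 25.9%, 27.4%, 27.5% and 35.1% in comparison cells. The share was higher in 4 of 4 mice (exact sign-flip permutation test, two-sided, p = 0.13). Without thinning it was 37.8% ± 10.6 in high-Malat1 cells and 45.1% ± 8.04 in comparison cells (SD, n = 4 mice each), the opposite order. Barcodes led by myeloid genes, which serve as the background, showed such a UMI in 4 of 37 (10.8%, exact 95% interval 3.03% to 25.4%, counting error only) at a median of 1233 UMIs.

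Of 29 S phase genes 3 were lower and none higher, beside 5.34% lower over all genes tested. Among those that fell were Chaf1b, of histone deposition, by 0.98 ± 0.29 and Tipin, of the replication fork, by 0.76 ± 0.16. In depth-matched cells none of 18 was called by edgeR or had an unadjusted p under 0.05, and Tipin stood at -0.26 (adjusted p = 0.645). The S phase sum there was 31.9 ± 2.57 per 10000 in high-Malat1 cells and 33.4 ± 6.74 in comparison cells (SD, n = 4 mice each), higher in 1 mouse. Histone genes were among the largest falls of all: Hist1h1b, linker histone H1.5, by 1.72 ± 0.26, and Hist1h2al and Hist1h2ap by 1.95 ± 0.28 and 1.94 ± 0.47. Hist1h2al and Hist1h2ap are near-identical copies, so single members are uncertain, and Hist1h2al is annotated as a processed pseudogene. Mybl2, a transcription factor of dividing cells, had 2 UMIs in high-Malat1 cells and 153 in comparison cells, a ratio of 0.171 (exact 95% interval 0.0205 to 0.628, counting error only). H2afz, the histone variant H2A.Z, had 30.5, 32.8, 29.3 and 29.4 UMIs per 10000 in high-Malat1 cells, against 53.1, 53.4, 60.6 and 60.2 in comparison cells. The classes are far apart, with a log2 fold change of -0.89 ± 0.06 (edgeR adjusted p = 1.91e-39) and -0.51 in matched cells (adjusted p = 1e-10). Of 22 abundant cytoplasmic mRNAs, H2afz among them, 13 were lower and 1 was higher, and in depth-matched cells 3 of 22 were lower. The one that rose was Tuba1a, neuronal alpha-tubulin, by 0.33 ± 0.06, at 0.18 without a call in matched cells (adjusted p = 0.0567). Among stress lists, 1 of 12 immediate early genes was higher and 2 were lower, beside 4.28% higher and 5.34% lower over all genes tested. Of 8 heat shock genes 1 was lower (Hspe1, not called in matched cells, edgeR adjusted p = 0.486). Of 8 p53 and cell death genes 1 was higher (Bbc3, by 1.18 ± 0.38, edgeR adjusted p = 0.0254). The lists are short, and their shares were not tested against those of all genes.

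Among bins of Malat1 the levels of ribosomal protein genes were lowest above 400. Their sum averaged 1684 ± 110 UMIs per 10000 outside Malat1 in cells at 250 to 300 Malat1 UMIs per 10000, just outside the rule, 1679 ± 82.7 at 300 to 400, just inside it, and 1267 ± 183 above 400 (SD, n = 4 mice each). Long noncoding genes averaged 85.6 ± 10.6 at 250 to 300, 95.1 ± 13.8 at 300 to 400 and 111 ± 19.8 above 400. Mitochondrially encoded genes averaged 326 ± 20.8, 383 ± 38.6 and 555 ± 23.5 in the same order, and 449 ± 49.5 in cells under 30. Median genes per cell fell over these bins as well, at 991 to 1591.5 over the 4 mice at 250 to 300, 890 to 1417.5 at 300 to 400 and 647.5 to 748 above 400.

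**Figure D5:**
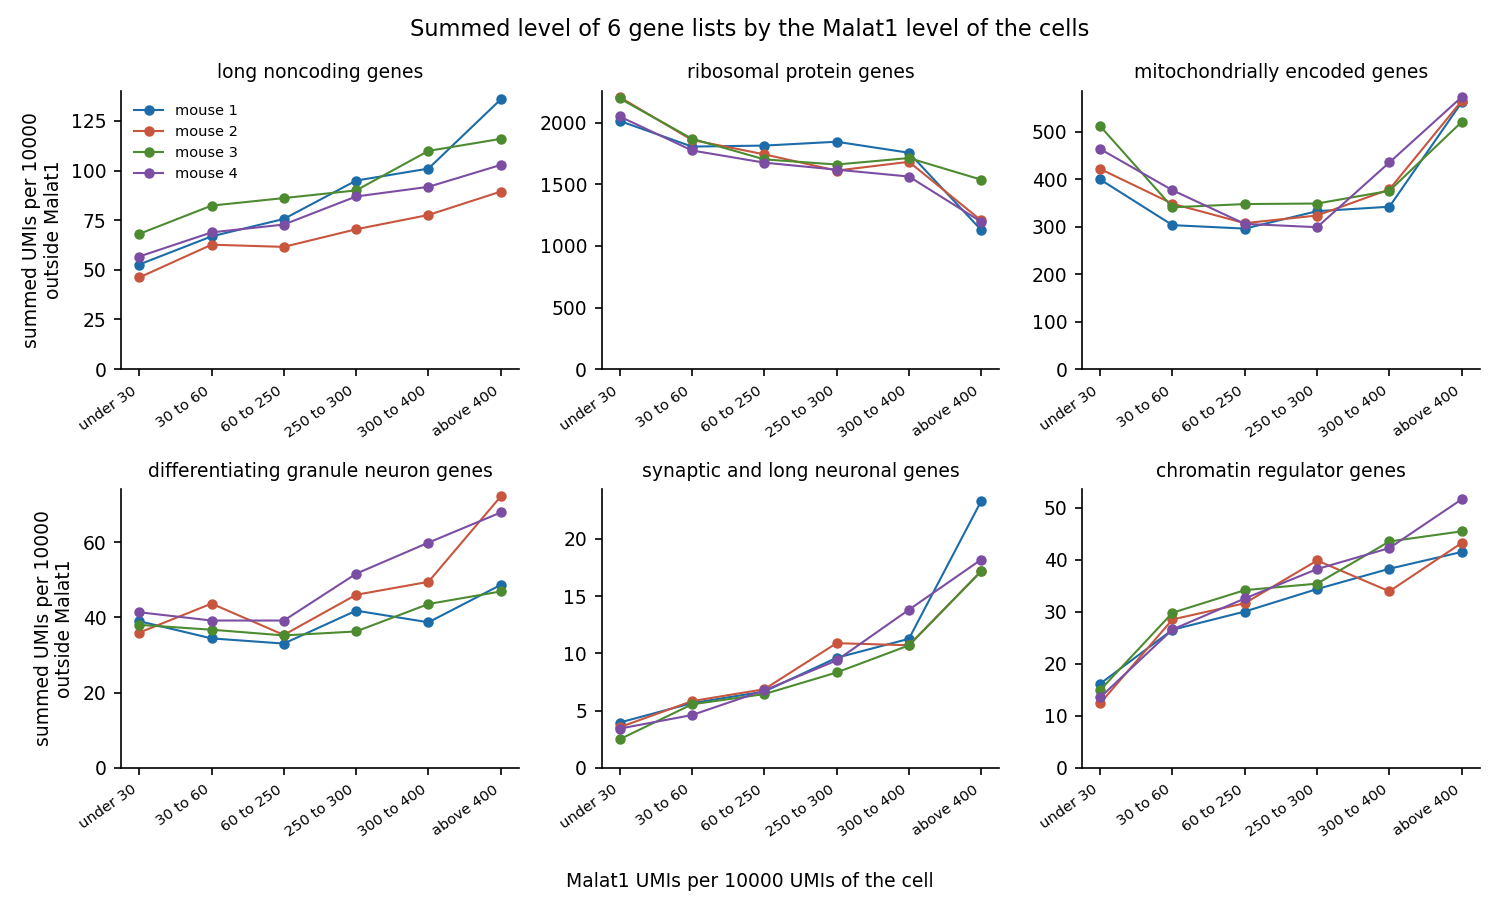
Summed level of 6 gene lists, as UMIs per 10000 outside Malat1, in cells grouped by their Malat1 UMIs per 10000, with 1 line per mouse. Long noncoding, synaptic and chromatin regulator lists are lowest under 30 and highest above 400 in each mouse, ribosomal protein levels are lowest above 400 in each mouse, and mitochondrially encoded levels are high at both ends.

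High-Malat1 cells were mixed. Among the 272 depth-matched ones, 65 (23.9%) lay above the 90th percentile of the matched comparison cells for differentiating granule genes, 47 (17.3%) for glial genes and 46 (16.9%) for G2/M genes, and 132 (48.5%) lay above it for none of these, against 194 matched comparison cells (71.3%) for none. Ribosomal protein shares lay below the 10th percentile in 36.2% ± 10.7 of them (SD, n = 4 mice).

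Some of the largest increases rest on few cells with glial or mature neuronal genes. Oligodendrocyte lineage genes took 9.12, 2.90, 4.37 and 5.10 UMIs per 10000 outside Malat1 in high-Malat1 cells, against 3.02, 2.39, 2.84 and 3.67 in comparison cells, and 1 of 5 tested was higher. Astroglial genes took 16.7, 10.6, 6.48 and 9.98 per 10000 in high-Malat1 cells, against 7.81, 6.46, 5.70 and 6.89 in comparison cells, and 3 of 6 tested were higher. Over all genes tested 4.28% were higher. The glial lists include 5 of the 7 filter genes, whose UMIs the rule limits. That limit is a count per cell, so shallower cells, as the high-Malat1 ones are, can keep a higher level per 10000. In depth-matched cells oligodendrocyte lineage genes took 5.49 ± 2.58 in high-Malat1 cells and 3.38 ± 0.927 in comparison cells. Astroglial genes took 10.8 ± 4.25 and 7.60 ± 2.71 there (SD, n = 4 mice each). Ptprz1, a receptor phosphatase of glial precursors, had 28 UMIs in 13 high-Malat1 cells and 47 UMIs in 39 comparison cells, a log2 fold change of 3.10 ± 0.43. Of its 28 UMIs 22 lay in the 19 cells with a Meg3 UMI, as did 38 of the 55 of Serpine2, a secreted protease inhibitor. Among neuronal genes the 19 cells held 5 of 5 UMIs of Gabra6, 15 of 19 of Calb2, 15 of 27 of Cntn1 and 12 of 39 of Pcsk1n. Of Gria2 they held 12 of 149 UMIs, of Neurod1 10 of 188 and of Opcml 2 of 55. Without all cells that hold a Meg3 UMI, 281 genes were higher and 303 lower, and Serpine2 was no longer called (0.85, edgeR adjusted p = 0.247), while Opcml stood at 2.67 and Neurod1 at 1.22, both called. With at most 20 glial and myeloid marker UMIs per 10000, 473 genes were called, 433 of them also called the same way in all cells. Markers of erythroid, ependymal and inhibitory neuronal cells had no UMI in high-Malat1 cells, and myeloid, vascular, lymphocyte, choroid plexus, Purkinje, unipolar brush and Schwann or meningeal lists had 2 to 14 UMIs each in all of them together. The part that depth, mitochondrial share, glial transcripts and differentiation state have in each result was not tested beyond these settings.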

How the data were processed

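The deposited files hold raw UMI counts per gene and barcode (27998 genes, 1 table per mouse), made by the authors with Cell Ranger 2.0.2 and build mm10, per the submitters' processing notes; the annotation release and the counting of strand and introns are not given in the sources used here. Whether intronic reads were counted bears on every level of nuclear RNA. No barcode was called a doublet or removed as one. From these counts, cells were filtered as the report states. Malat1 and the 7 filter genes were left out of the tested sums and their library sizes, which count tested genes only; levels of gene lists are per 10000 UMIs outside Malat1. Sums per mouse and class (8) were tested with edgeR 4.0.16 in R 4.3.3 (TMM, filterByExpr, quasi-likelihood, mouse as a block, Benjamini-Hochberg, 0.05); DESeq2 1.42.0 was an alternative. Both classes of a mouse come from the same animal and library, which pairs them; their deviations from the class means correlated at 0.212, 0.262, 0.261 and 0.186 over 6829 genes. Standard errors were worked back from the test, as the size of the log2 fold change divided by the root of its F statistic. They carry the spread pooled over genes, not a gene's own spread between mice. High-Malat1 sums hold 61761 to 186417 UMIs outside Malat1, against 1012952 to 2061745 in comparison sums, so rare genes of high-Malat1 cells are the least precise. Of 27998 gene names 26608 matched a GENCODE M21 symbol and 564 a RefSeq synonym. Rian, Snhg14, Peg13, Tug1, Firre, Sox2ot and Gas5 were not matched. Python 3.11.15, numpy 2.4.6, pandas 2.3.3 and scipy 1.17.1 were used. The edgeR test was also run on simulated sums with a common spread for all genes and the same mouse effect in both classes. Such sums hold no differences between mice in the class effect, so that run cannot check how the test handles them. Members, gene lists and named genes were chosen with earlier results of these data known. Named are genes fixed by name, up to 3 called genes per list and direction with the same sign in each mouse, and the 10 largest changes each way; Meg3 cells and start-site examples were picked after their values were seen.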

Additional observations from a re-analysis of the deposited data

How the results depend on the processing

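Of 1689 values of 85 named genes under the alternatives, 1371 kept direction and call, 293 kept direction and lost the call, 3 gained one and 22 changed sign. Genes called (657; 292 higher, 365 lower) were 243 with DESeq2 (115 higher, 128 lower), 127 in cells thinned to 1000 UMIs (69, 58), 88 in depth-matched cells (54, 34), 369 at no more than 5% mitochondrial UMIs (176, 193) and 134 below the median of differentiating markers (57, 77), the last added after seeing the data. With at most 1 differentiating UMI per cell 7 were called, all higher, and 0 lower, with 34 at an unadjusted p under 0.05. With library totals 571 were called, 382 higher and 189 lower, so that the excess of lower calls became an excess of higher ones. Calls lower were 651 without a filter on low counts (168 higher) and 607 at 20 or more UMIs. Without the replicate block, 130 were called (79 higher, 51 lower). Leaving out 1 mouse gave 282 to 646 calls, 115 to 309 higher and 167 to 337 lower.

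Long noncoding genes called higher (12) were 6 with DESeq2, 2 without the replicate block, 2 thinned, 2 depth-matched, 1 with at most 1 differentiating UMI, 6 below the differentiating median and 5 to 13 with 1 mouse left out. Ribosomal protein genes called lower (62) were 39 with library totals, 38 with DESeq2, 2 without the block, 14 thinned, 10 depth-matched, 30 at 5% mitochondrial UMIs, 0 with at most 1 differentiating UMI, 5 below the differentiating median and 42 to 64 with 1 mouse left out. The cycling share differed by -7.24 percentage points without thinning.

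Signs changed, on the log2 scale, for Rps27 (0.041 with library totals, -0.16 to 0.034 with 1 mouse left out, positive without mouse 1 and without mouse 2, 0.0039 thinned, 0.068 at 5% mitochondrial UMIs), Atoh1 (-0.15 without a filter, -0.10 at 20 UMIs, -0.087 to 0.17 with 1 mouse left out, negative without mouse 1 and without mouse 3, -0.61 above 400), Ptch1 (0.020 depth-matched, 0.094 below the differentiating median), and below that median Gli1 (0.11), Gap43 (-0.0017) and Neurod1 (-0.0085). They changed at 5% mitochondrial UMIs for Mki67 (-0.10), Top2a (-0.23), mt-Co1 (-0.0058), mt-Atp6 (-0.064), mt-Nd1 (-0.14) and mt-Co3 (-0.024), and for Srsf7 (0.28) with at most 1 differentiating UMI. The cause of these changes was not tested. High-Malat1 sums hold few UMIs, and a missing call for a rare gene does not show that it is level.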
